A study of Mus musculus with 8 samples.

Results

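The genes described here carry fatty acids into mitochondria, oxidise them there and handle the ketone bodies made from the product. They are 34 named genes of the carnitine shuttle, the acyl-CoA synthetases, beta-oxidation, electron transfer and ketone metabolism. A gene was included where a probe set was annotated to it alone, and its brightest probe set over the 8 arrays was used. This gave 31 measured genes out of 22180 tested in all, and Acsl1, Acsm3 and Ucp2 had no probe set annotated to them alone.

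Livers of 3-month-old mice on normal chow were profiled on single-colour Affymetrix arrays, 4 per group. Each knockout mouse (NCOR_KO) had been given AAV-Cre by vein, where AAV is an adeno-associated virus that delivers genes to liver cells and Cre excises floxed DNA. Controls (WT) had been given AAV-GFP, and the livers of both groups were taken 2 weeks later at 5 pm, or ZT10. The design text calls the injected mice NCOR floxed while the labels call the controls wild-type, which leaves the control genotype unsettled, and Cre itself differs with the group. The promoter that drives Cre is not given in the sources used here. The targeted gene was not analysed here, so the labels were not checked against it. The labels call the replicates biological without naming animals, and a p-value here reflects the spread among these arrays.

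Mitochondrial fatty acid oxidation starts when an acyl-CoA synthetase activates a fatty acid and CPT1 links it to carnitine, the step at which malonyl-CoA controls entry. Inside, CPT2 restores the acyl-CoA, which is shortened in repeated rounds by a dehydrogenase, a hydratase, a second dehydrogenase and a thiolase, while the electron transfer flavoprotein passes electrons on to the respiratory chain. In fasting liver much of the acetyl-CoA formed becomes ketone bodies, which the liver exports and hardly uses itself. NCOR acts as a corepressor that joins unliganded nuclear receptors to the deacetylase HDAC3, and many genes of this pathway are known targets of the nuclear receptor PPARα.

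The 8 arrays had median intensities of 41.0 to 44.1, and their pairwise correlations across genes, which are not replicates, were 0.992 to 0.997. All 9 hepatocyte markers lay above the median gene level of 5.88 (log2 intensity), while 4 of 4 adipocyte and 3 of 4 muscle markers lay below it. Of the 31 genes of the pathway 28 lay above that level, and Acss1, Acad12 and Oxct1 did not. One array of each group stood apart in the markers of Kupffer cells and macrophages, since NCOR_KO replicate 1 and WT replicate 2 were the lowest of their groups for 6 of 6 such markers. Without both arrays Crat, described next, had a log2 difference of 0.92 (adjusted p = 0.00294, limma) and Bdh1 one of -0.24 (adjusted p = 0.127, limma).

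Crat, the carnitine acetyltransferase gene, was 1.83-fold higher in knockout liver, and Bdh1, whose enzyme interconverts acetoacetate and beta-hydroxybutyrate, was 1.24-fold lower. These were the calls among the 31 genes, 1 higher and 1 lower, at an adjusted p under 0.05 (limma, Benjamini-Hochberg over all genes tested), and 29 did not pass. Across all 22180 genes 1.65% passed that threshold, 0.816% higher and 0.834% lower. The median log2 difference of the 31 genes, knockout minus control, was 0.06, against 0.01 over all genes, and 22 (71.0%) lay above 0 while 9 lay below, against 52.0% above 0 over all genes. The standard errors were small, with a median of 0.06 on the log2 scale. For 28 of the 29 genes that did not pass, the 95% interval of the difference, not corrected for multiple testing, lay within 1.5-fold in both directions, and for 16 it lay within 1.2-fold. The exception at 1.5-fold was Slc22a5.

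**Figure D1:**
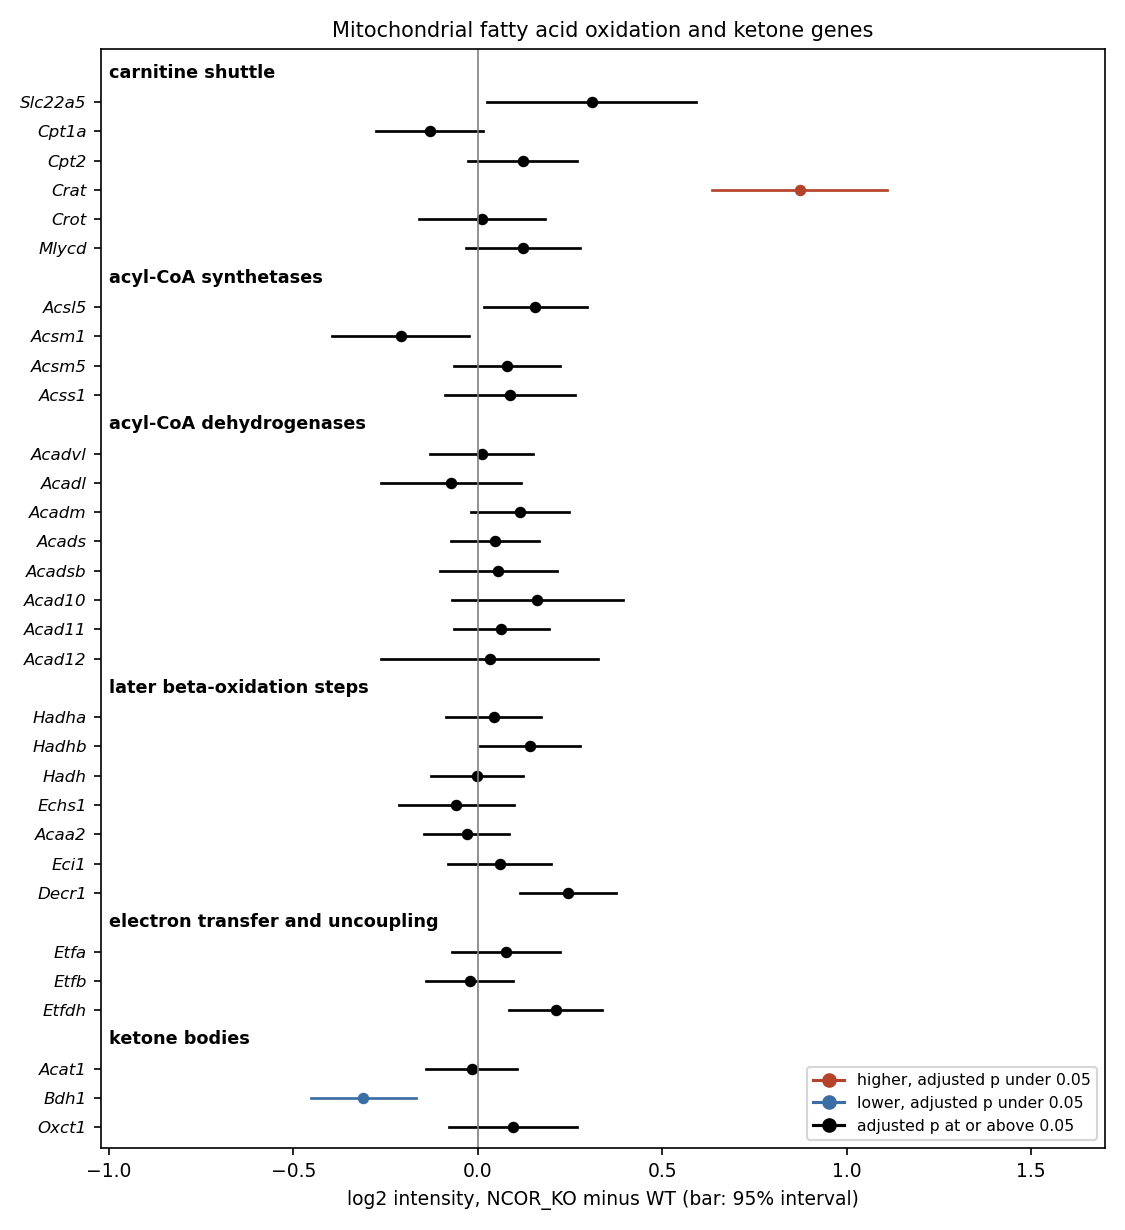
Log2 difference in intensity (x axis, NCOR_KO minus WT) of each measured gene, grouped by step of the pathway down the page. Points are limma estimates and bars their 95% intervals, 4 arrays per group. Crat stands at 0.87 and Bdh1 at -0.31, and the other 29 estimates lie between them.

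Among the genes of the carnitine shuttle 1 of 6 rose, 0 fell and 5 did not pass. Crat makes acetylcarnitine from acetyl-CoA and so buffers the acetyl-CoA pool of mitochondria and peroxisomes. Its log2 intensity was 10.53, 10.44, 10.24 and 10.28 in knockout replicates 1 to 4, against 9.51, 9.78, 9.40 and 9.30 in the control replicates. Every knockout value lay above every control value, with control replicate 2 the highest of its group. The log2 difference was 0.87 ± 0.11 (SE; adjusted p = 0.00415, limma), and Crat passed in 16 of 16 other fits. A dimmer Crat probe set read 6.49, 6.48, 6.66 and 6.36 in knockout liver and 6.15, 6.44, 6.09 and 6.19 in control liver. There control replicate 2 lay above knockout replicate 4, and the difference of 0.28 did not pass (adjusted p = 0.170, limma over all single-gene probe sets), and the mean of both probe sets gave 0.58.

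The other acyltransferases of the shuttle had intervals that ended below the start of that of Crat, which ran from 0.64 to 1.11. Cpt1a, the liver form of the enzyme that controls entry, read 11.93, 11.97, 12.02 and 12.05 in knockout liver and 12.04, 12.21, 12.03 and 12.20 in control liver. The groups overlapped on the Cpt1a probe set, and the difference of -0.13 had a 95% interval of -0.27 to 0.02 (adjusted p = 0.365, limma). Cpt2, which returns the acyl group to coenzyme A inside the mitochondrion, read 11.81, 11.78, 11.64 and 11.74 in knockout liver and 11.58, 11.75, 11.56 and 11.60 in control liver. Its difference was 0.12 (interval -0.03 to 0.27), with control replicate 2 inside the knockout range. Crot, the peroxisomal carnitine octanoyltransferase gene, differed by 0.01 (interval -0.16 to 0.18).

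Slc22a5 encodes the carnitine importer OCTN2 of the cell membrane. It read 9.58, 9.24, 9.17 and 8.99 in knockout liver and 8.98, 9.18, 8.81 and 8.78 in control liver. Knockout replicate 1 stood highest and the groups overlapped, so that the difference of 0.31 ± 0.13 (SE; adjusted p = 0.271, limma) came with the widest spread among knockout arrays of the 31 genes (SD 0.25). Mlycd, whose enzyme degrades malonyl-CoA, differed by 0.12 (interval -0.03 to 0.28).

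**Figure D2:**
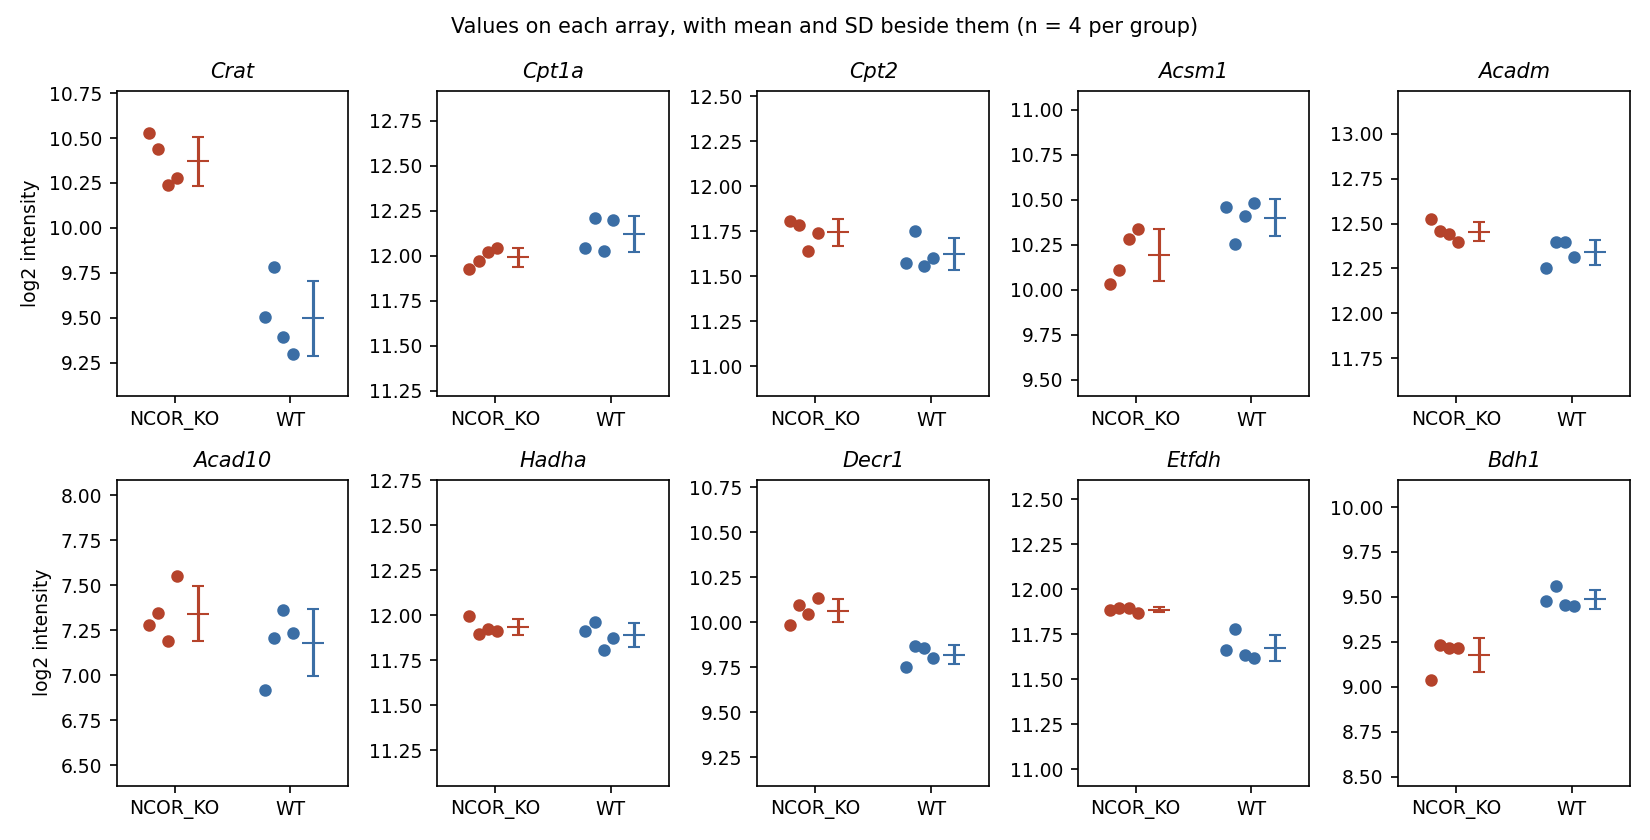
Log2 intensity (y axis) on each array for 10 genes, knockout arrays in red at the left and control arrays in blue at the right of each panel. Bars beside the points give the mean and SD (n = 4), and every panel spans the same range of log2 units. For Crat, Decr1, Etfdh and Bdh1 the groups do not overlap, and for the other 6 genes they do.

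Of the 4 measured acyl-CoA synthetases 0 rose, 0 fell and 4 did not pass; the unadjusted p was under 0.05 for Acsl5 and Acsm1. Acsm1, a medium-chain synthetase gene of the mitochondrial matrix, read 10.04, 10.11, 10.29 and 10.34 in knockout liver and 10.46, 10.25, 10.41 and 10.48 in control liver. Control replicate 2 fell within the knockout range, and the difference was -0.21 ± 0.08 (SE; adjusted p = 0.255, limma). Acsl5, which activates long-chain fatty acids, read 11.83, 11.69, 11.85 and 11.77 in knockout liver and 11.51, 11.65, 11.65 and 11.69 in control liver. Its groups did not overlap, though knockout replicate 2 and control replicate 4 were nearly equal, and the difference was 0.16 (adjusted p = 0.261, limma). Acsm5 differed by 0.08 and Acss1, which activates acetate in mitochondria, by 0.09. Acss1 was dim, at 5.09 in knockout and 5.01 in control liver, and its second probe set gave -0.06.

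The acyl-CoA dehydrogenases open each round of beta-oxidation, and each prefers a range of chain lengths. Of 8 measured, 0 rose, 0 fell and 8 did not pass (limma; 0 at an unadjusted p under 0.05), and the groups overlapped for all 8. Acadm, the medium-chain enzyme gene, read 12.53, 12.46, 12.44 and 12.40 in knockout liver and 12.25, 12.40, 12.40 and 12.32 in control liver. The lowest knockout array was level with the highest control arrays, and the difference was 0.11 (interval -0.02 to 0.25; adjusted p = 0.387, limma). The very long-chain (Acadvl, 0.01), long-chain (Acadl, -0.07), short-chain (Acads, 0.05) and short branched-chain (Acadsb, 0.06) genes lay closer to 0. Acad10, a less studied member of the family, had the widest difference of the group, with 7.28, 7.35, 7.19 and 7.55 in knockout liver and 6.92, 7.21, 7.37 and 7.23 in control liver. These values overlapped, and the difference of 0.16 had an interval of -0.07 to 0.39 (adjusted p = 0.488, limma). Acad11 (0.06) and Acad12 (0.03) completed the family, the last a dim probe set whose sign changed in several other fits.

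The later steps are run by the trifunctional protein, whose subunits are encoded by Hadha and Hadhb, and by the matrix enzymes of Echs1 (hydratase), Hadh (dehydrogenase) and Acaa2 (thiolase). Eci1 and Decr1 encode an isomerase and a dienoyl-CoA reductase that prepare unsaturated fatty acids for the cycle. Of these 7 genes 0 rose, 0 fell and 7 did not pass (limma; 2 at an unadjusted p under 0.05, Hadhb and Decr1). Decr1 came nearest, with 9.99, 10.10, 10.04 and 10.13 in knockout liver and 9.75, 9.87, 9.86 and 9.80 in control liver. Every knockout value of Decr1 was above every control value, and the difference was 0.24 ± 0.06 (SE; adjusted p = 0.0742, limma). Decr1 passed in 2 of 16 other fits, with trend and robust settings (adjusted p = 0.0407, limma) and among genes at or above the median level (adjusted p = 0.0410, limma).

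Hadha read 12.00, 11.90, 11.93 and 11.91 in knockout liver and 11.91, 11.96, 11.81 and 11.87 in control liver, overlapping throughout, with a difference of 0.04 (interval -0.09 to 0.17). Hadhb read 7.48, 7.60, 7.42 and 7.42 in knockout liver and 7.30, 7.35, 7.33 and 7.38 in control liver. These Hadhb values did not overlap, but the difference of 0.14 did not pass (adjusted p = 0.293, limma). The subunit genes face away from each other: in RefSeq on GRCm38.p6 their start sites lie 273 bases apart on chromosome 5. The Hadhb window, chr5:30155003-30155302 on the plus strand, is shown because it shares 228 bases with that of Hadha (minus strand). Capitals mark the shared stretch.
Hadhb: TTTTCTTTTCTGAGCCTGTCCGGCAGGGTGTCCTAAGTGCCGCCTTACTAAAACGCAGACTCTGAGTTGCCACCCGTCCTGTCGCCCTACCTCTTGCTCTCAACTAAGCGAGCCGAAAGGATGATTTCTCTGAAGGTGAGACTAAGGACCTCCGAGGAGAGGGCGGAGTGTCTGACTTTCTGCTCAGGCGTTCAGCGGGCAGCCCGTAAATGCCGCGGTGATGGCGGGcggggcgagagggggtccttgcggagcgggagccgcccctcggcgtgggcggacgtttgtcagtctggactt
The remaining genes of this step stayed near 0, at -0.06 for Echs1, -0.03 for Acaa2, -0.00291 for Hadh and 0.06 for Eci1.

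Electron transfer flavoprotein (Etfa, Etfb) takes electrons from the dehydrogenases, and its oxidoreductase (Etfdh) hands them to ubiquinone. Of these 3 genes 0 rose and 0 fell (limma; 1 at an unadjusted p under 0.05), although Etfdh read 11.88, 11.89, 11.90 and 11.87 in knockout liver against 11.66, 11.78, 11.63 and 11.62 in control liver. The knockout arrays of Etfdh were nearly equal (SD 0.01) and all above the controls, among which replicate 2 was highest. The difference was 0.21 ± 0.06 (SE; adjusted p = 0.101, limma), and it passed in 1 of 16 other fits, that with trend and robust settings (adjusted p = 0.0298, limma). Etfa differed by 0.08 and Etfb by -0.02, with overlapping groups.

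Among the ketone body genes 0 of 3 rose, 1 fell and 2 did not pass. Bdh1 read 9.04, 9.23, 9.22 and 9.22 in knockout liver and 9.48, 9.56, 9.46 and 9.45 in control liver. All knockout values of Bdh1 lay below all control values, with knockout replicate 1 the lowest. The difference was -0.31 ± 0.06 (SE; adjusted p = 0.0429, limma). That call was kept in 5 of 16 other fits and missed the threshold whenever any single array was left out, at adjusted p-values of 0.0756 to 0.103 (limma), with a log2 difference of -0.33 to -0.26. Acat1, the thiolase that joins acetyl groups at the start of ketone synthesis, differed by -0.02 (interval -0.14 to 0.11). Oxct1 encodes the transferase that other tissues need to burn ketone bodies and hepatocytes largely lack; its probe set was dim, at 5.47 in knockout and 5.38 in control liver, and its difference was 0.10.

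Promoter windows from RefSeq (GRCm38.p6, 250 bases before to 50 after the start) matched 27 of the 31 genes, in 28 windows, and Crat, Acaa2, Decr1 and Acat1 had none. The letters AGGTCA, the core hexamer bound by many nuclear receptors, were searched on both strands and occurred in 5 of the 28 windows (17.9%) and in 16.3% of all 32851 windows. They were found for Acadm, Acadvl, Acsm1, Cpt1a and Echs1. The direct repeat AGGTCANAGGTCA, a form that PPARα with its partner RXR can bind, occurred in 0 of 28 windows and in 13 of all windows, and the looser AGGNCANAGGNCA in 0 of 28 and 0.381% of all. Repeats this rare would be missed in most sets of 28 windows, so these counts cannot set the genes apart from others. Sequence outside the windows was not searched. TAGGTCA, which contains the hexamer, occurred for Acadvl alone among these genes and in 2.61% of all windows. The windows of Bdh1 (chr16:31422047-31422346 and chr16:31428503-31428802, plus strand), the called gene with a match in RefSeq, are printed beside those of the textbook oxidation genes Cpt1a (chr19:3323051-3323350, plus strand) and Acadm (chr3:153944594-153944893, minus strand). Capitals mark the hexamer, which reads TGACCT where it lies on the other strand. It starts 94 bases before the start site in Cpt1a and 249 bases before it in Acadm.
Bdh1, first window: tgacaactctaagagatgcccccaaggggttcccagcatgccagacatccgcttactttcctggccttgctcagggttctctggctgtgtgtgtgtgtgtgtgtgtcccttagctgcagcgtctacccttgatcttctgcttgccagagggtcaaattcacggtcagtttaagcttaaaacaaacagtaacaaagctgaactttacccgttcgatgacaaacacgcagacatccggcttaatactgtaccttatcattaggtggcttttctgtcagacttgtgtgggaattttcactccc
Bdh1, second window: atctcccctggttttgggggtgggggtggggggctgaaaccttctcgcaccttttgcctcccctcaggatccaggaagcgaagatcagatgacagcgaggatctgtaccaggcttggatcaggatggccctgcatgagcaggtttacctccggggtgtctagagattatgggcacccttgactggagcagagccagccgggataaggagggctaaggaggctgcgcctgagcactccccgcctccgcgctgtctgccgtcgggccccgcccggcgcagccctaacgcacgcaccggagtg
Cpt1a: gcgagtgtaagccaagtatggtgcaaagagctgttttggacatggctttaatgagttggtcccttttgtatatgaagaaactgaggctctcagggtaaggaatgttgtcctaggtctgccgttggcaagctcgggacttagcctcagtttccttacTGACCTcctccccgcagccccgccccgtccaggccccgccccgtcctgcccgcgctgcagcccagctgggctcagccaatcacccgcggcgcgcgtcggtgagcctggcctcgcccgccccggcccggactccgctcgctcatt
Acadm: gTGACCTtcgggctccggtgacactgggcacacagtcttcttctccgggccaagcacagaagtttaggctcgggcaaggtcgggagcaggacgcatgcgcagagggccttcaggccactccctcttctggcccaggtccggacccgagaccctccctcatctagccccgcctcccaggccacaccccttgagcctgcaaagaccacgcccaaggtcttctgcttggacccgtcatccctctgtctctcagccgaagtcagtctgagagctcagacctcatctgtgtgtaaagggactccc
Neither Bdh1 window holds the hexamer.

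Without regard to a test, the groups did not overlap for 6 of the 31 genes, 5 of them higher in knockout liver (Crat, Acsl5, Hadhb, Decr1 and Etfdh) and 1 lower (Bdh1). Over all genes this separation occurred in 10.4%, 4.9% higher and 5.49% lower. An unadjusted p under 0.05 was reached by 8 of the 31 genes, which adds Slc22a5 and Acsm1 to those 6, and by 15.9% of all genes. The mean over the 31 genes of each value minus its gene's mean was 0.05, 0.05, 0.01 and 0.04 in knockout replicates 1 to 4, against -0.09, 0.02, -0.04 and -0.04 in the control replicates. Control replicate 2 thus lay above knockout replicate 3. It was the highest control array for 19 of the 31 genes, and control replicate 1 was the lowest for 16. Without Crat and Bdh1 the means were 0.05, 0.04, 8.50e-04 and 0.03 in knockout liver and -0.08, 0.02, -0.03 and -0.02 in control liver.

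**Figure D3:**
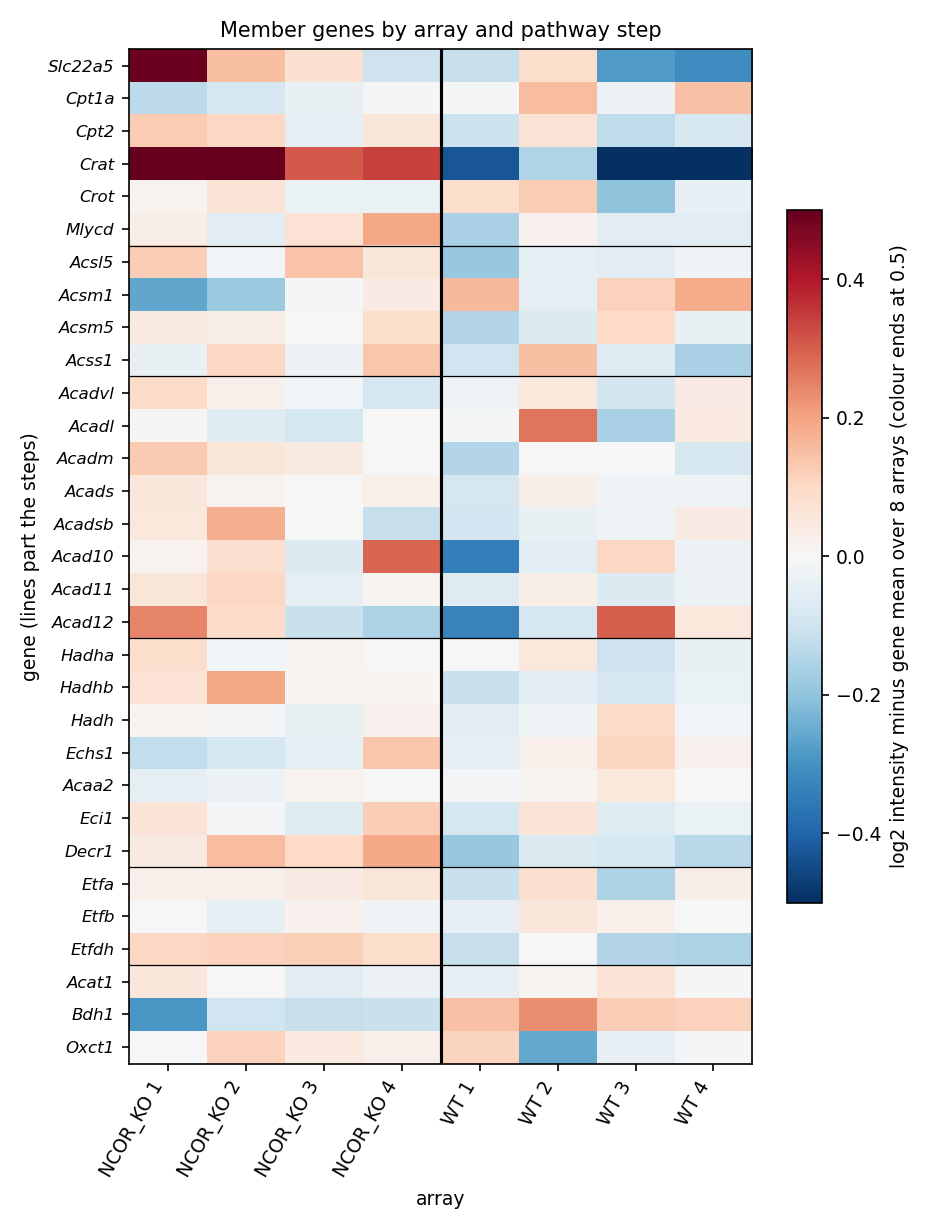
Log2 intensity of each gene (rows, grouped by step with lines between) on each array (columns, knockout left of the line and control right of it), as the deviation from the gene's mean over 8 arrays. Red is above and blue below that mean, with the colour scale ending at 0.5. Crat is red on the knockout arrays and blue on the control arrays, Bdh1 is the reverse, and most other rows are pale.

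Other genes of the same pathway were read from a wider list, of which 41 of 46 were measured: 1 rose, 1 fell and 39 did not pass. Over all genes 1.65% passed. An unadjusted p under 0.05 (limma) was reached by 13 of the 41, and by 15.9% of all genes. Without overlap 5 of the 41 were higher and 4 lower, against 4.9% and 5.49% of all genes. The median log2 difference of the 41 genes was 0.02. Acss3, an acyl-CoA synthetase gene whose enzyme activates short-chain acids such as propionate in mitochondria, read 8.97, 9.08, 8.66 and 9.20 in knockout liver and 7.46, 7.69, 8.09 and 7.61 in control liver. The groups lay well apart, and Acss3 was 2.40-fold higher (log2 1.26 ± 0.14 SE; adjusted p = 0.00273, limma), a call kept in 16 of 16 other fits. The other 9 synthetases measured, of 10, did not pass (limma; 3 of the 10 had an unadjusted p under 0.05). Among those 9 was Acss2, which activates acetate in the cytosol and nucleus, with a difference of 0.63 and no overlap between the groups (adjusted p = 0.0749, limma). Bdh2, a cytosolic relative of Bdh1 also linked to siderophore synthesis, read 7.46, 7.60, 7.70 and 7.67 in knockout liver and 8.17, 8.18, 8.31 and 8.09 in control liver. It was lower without overlap (log2 difference -0.58 ± 0.07 SE; adjusted p = 0.00459, limma), again in 16 of 16 other fits, and 5 of the 6 genes of ketone synthesis, use and transport did not pass (limma; 4 of the 6 had an unadjusted p under 0.05). Slc16a1, a monocarboxylate transporter gene whose protein carries lactate and ketone bodies, differed by 0.47 without overlap (adjusted p = 0.0692, limma). Aacs, of the same group, differed by -0.51 with overlap (adjusted p = 0.108, limma). Slc16a1 passed in 4 of 16 other fits and Aacs in 3 of 16 (limma).

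Slc25a20, the translocase that exchanges acylcarnitine for carnitine across the inner membrane, read 11.07, 11.04, 10.97 and 11.05 in knockout liver and 10.72, 10.87, 10.78 and 10.65 in control liver. These values did not overlap, and the difference of 0.28 ± 0.06 (SE) had an adjusted p of 0.0601 (limma). Slc25a20 passed in 5 of 16 other fits, with the lowest adjusted p of 0.0232 under trend and robust settings (limma). Of the 8 fits that dropped 1 array, that without WT replicate 2 gave it an adjusted p of 0.0449. The other 7 gave 0.0925 to 0.158 (limma). Of the 6 measured genes of carnitine synthesis and transport 0 passed (limma; 1 at an unadjusted p under 0.05), and of 12 further mitochondrial acyl-CoA enzymes 0 passed (3 at an unadjusted p under 0.05). Among those enzymes Pcca, a subunit of propionyl-CoA carboxylase, differed most (0.19, adjusted p = 0.182, limma). Of 7 regulators 0 passed (limma; 2 at an unadjusted p under 0.05). Sirt3, the mitochondrial deacetylase gene, had the largest difference among them, with 9.69, 9.56, 9.58 and 9.55 in knockout liver and 9.87, 10.05, 9.76 and 9.89 in control liver (-0.30, adjusted p = 0.0749, limma). All knockout values of Sirt3 lay below all control values, and Sirt3 passed in 2 of 16 other fits (limma). The other regulator at an unadjusted p under 0.05 was Rxra. It differed by -0.18 without overlap (adjusted p = 0.183, limma), and Ppara differed by -1.5e-05.

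**Figure D4:**
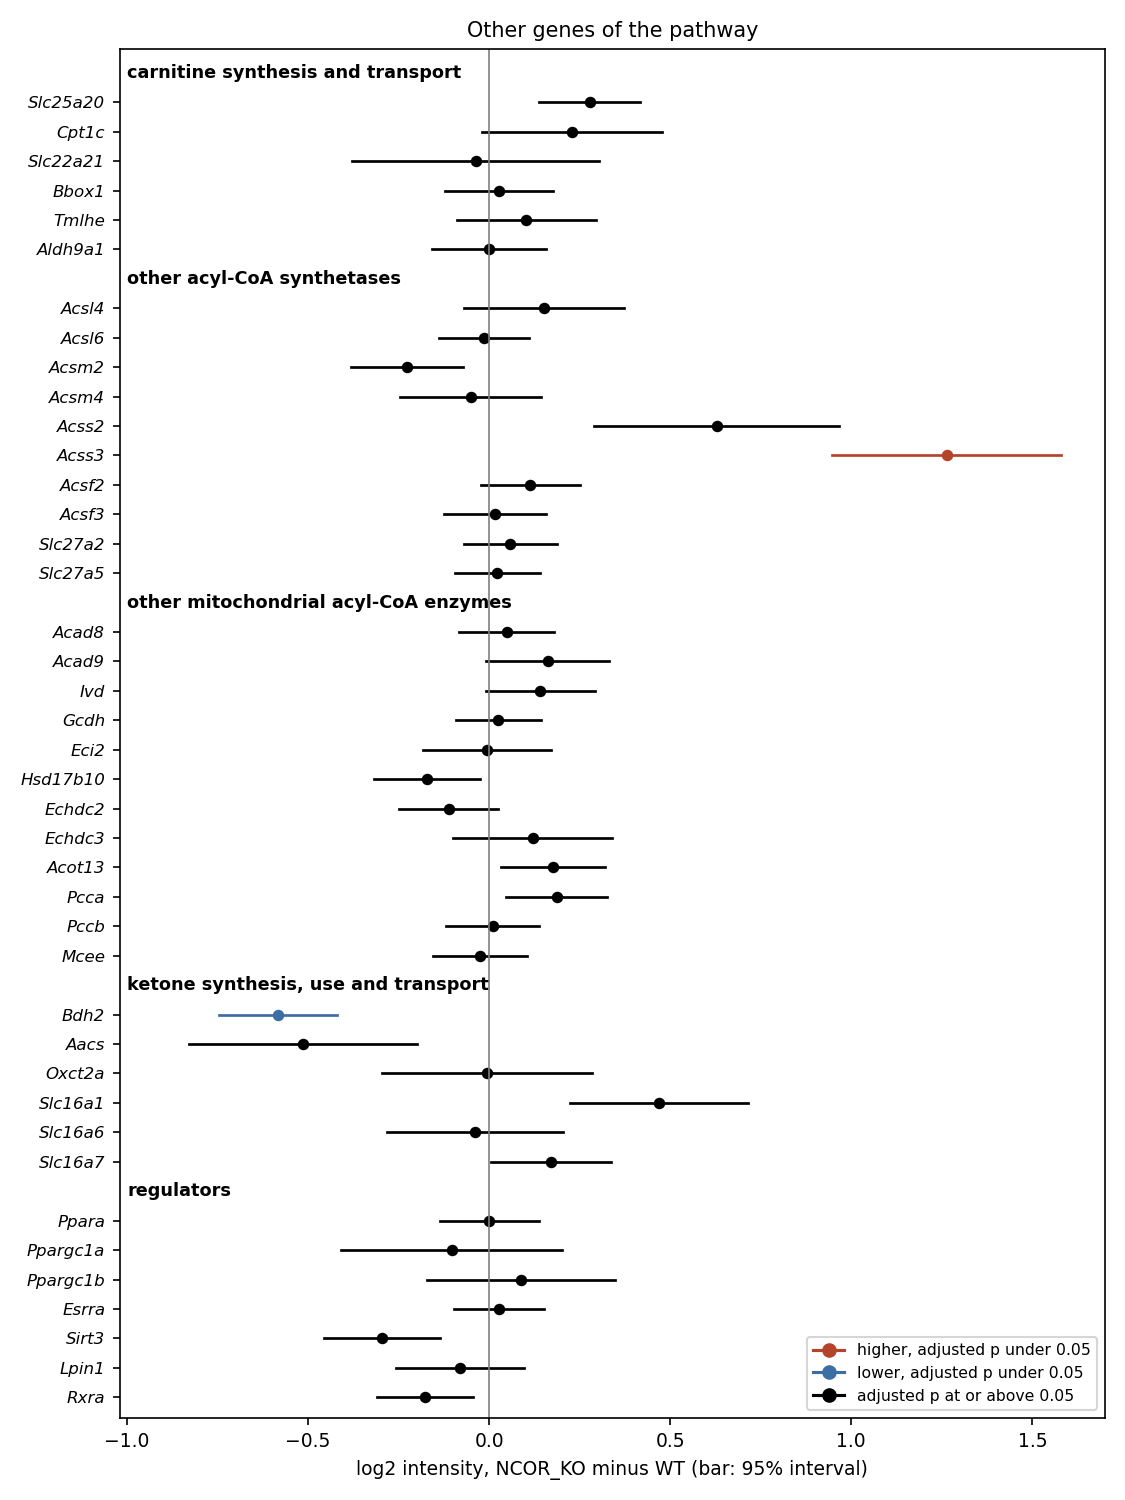
Log2 difference (x axis, NCOR_KO minus WT) of 41 other genes of the pathway by group, with 95% intervals, 4 arrays per group. Acss3 at 1.26 and Bdh2 at -0.58 passed the threshold, and the other 39 did not.

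Markers of other liver cells were read beside these genes. Over all genes 0.816% were called higher and 0.834% lower. Of 8 endothelial markers 8 lay above 0 and 1 rose (Robo4, 0.35). An unadjusted p under 0.05 (limma) was reached by 7 of the 8, and by 15.9% of all genes. Without overlap 3 of the 8 were higher and 0 lower, against 4.9% and 5.49% of all genes. The summed intensity of the 8 ran from 6152 to 7113 in knockout liver and from 5296 to 6179 in control liver. Of 5 cholangiocyte markers 1 rose (Epcam, 0.41), at sums of 368 to 434 in knockout and 317 to 332 in control liver. Of 5 lymphocyte markers 2 rose (Cd3e, 0.47, and Cd79a, 0.41), at sums of 246 to 278 in knockout and 217 to 234 in control liver. The other 3 did not pass, namely Cd3g (-0.04), Ms4a1 (0.10) and Nkg7 (0.09), at adjusted p-values of 0.521 to 0.915 (limma). Of these 5 lymphocyte markers 4 lay below the median gene level, Cd3e and Cd79a among them. With single arrays left out, Epcam passed in 0 of 8 fits, Robo4 in 1, Cd3e in 2 and Cd79a in 5 (limma), and with the replicate block none of these 4 passed (adjusted p = 0.0696 to 0.129, limma). Of 6 Kupffer cell and macrophage markers 0 passed, and their summed intensity was 2061, 3267, 3202 and 3604 in knockout replicates 1 to 4, against 2979, 1681, 3283 and 2732 in the control replicates. The low knockout and control arrays were those named above. Of 7 stellate cell markers 0 passed, at sums of 1543 to 1722 in knockout and 1633 to 1817 in control liver. The 9 hepatocyte markers did not pass, with sums of 53718 to 55216 in knockout and 53237 to 55300 in control liver. The part of these cell types in the differences above was not tested, and in whole liver fewer cells of a type cannot be told apart from less RNA per cell.

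**Figure D5:**
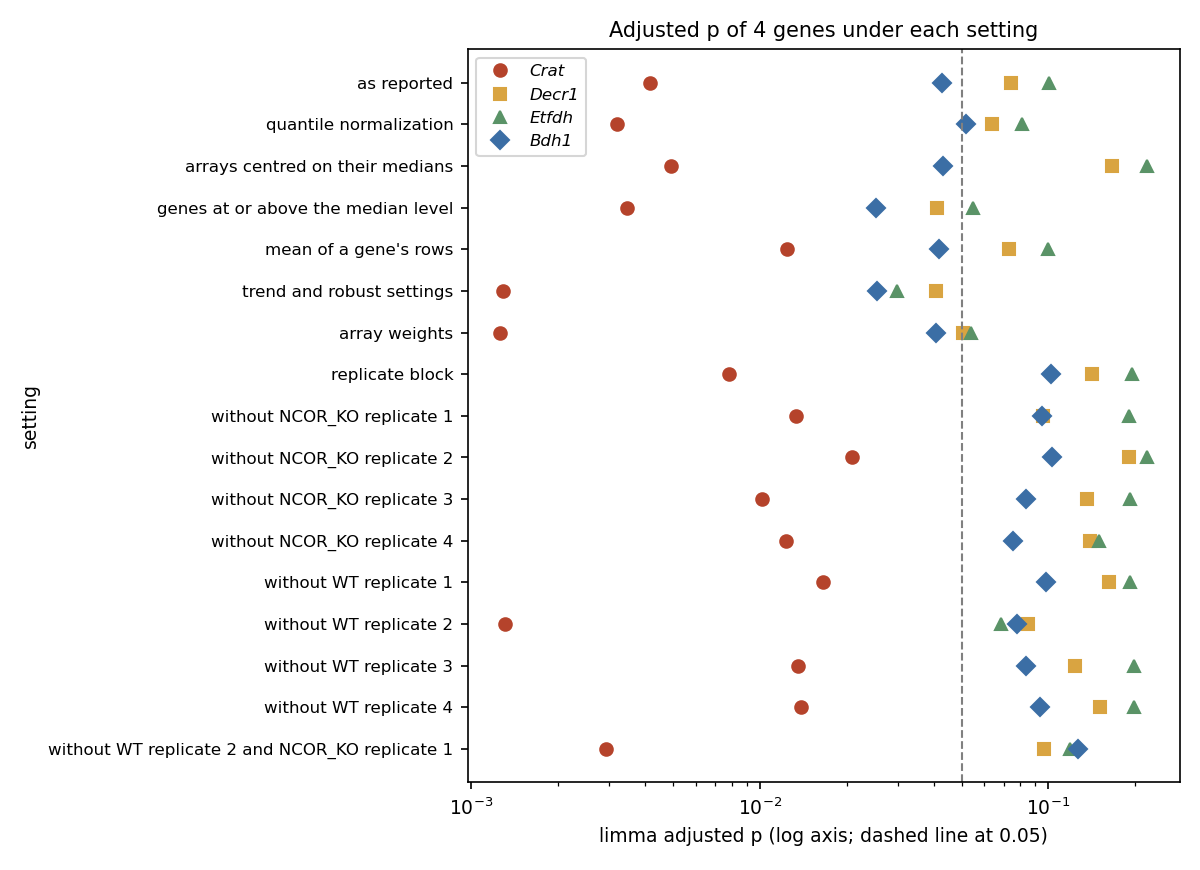
Adjusted p (x axis, log scale) of Crat, Decr1, Etfdh and Bdh1 under the reported fit and each alternative (y axis). Crat lies left of the dashed line at 0.05 in every fit drawn, at most at 0.0209, while Bdh1 lies right of it whenever an array is left out.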

How the data were processed

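Total RNA of 8 livers was hybridised to single-colour arrays. The authors deposited probe-set intensities on a linear scale (5.42 to 13268), made with RMA and Partek per the submitters' processing notes, which give neither version nor role. The genome build is not given in the sources used here. Log2 was taken with no further normalization. Of 41345 probe sets, 23521 were annotated to 1 gene, and the brightest per gene gave 22180 genes, with no filter on dim ones.

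The knockout coefficient was estimated with limma (version 3.58.1, R 4.3.3; lmFit, eBayes, intercept and group), and the step was tested on simulated data. Benjamini-Hochberg adjustment ran over all genes, with a threshold of 0.05. The array number limits the precision. The genes, the pathway list and the markers were chosen with earlier results of these data known. Genes were given in full if they passed, had the largest difference of their step, or were Cpt1a, Cpt2, Acadm, Hadha or Bdh1. Slc22a5, Acsl5, Hadhb, Acss2, Slc16a1, Aacs, Rxra and Ppara were added after their values were seen. Of the wider list, genes past the threshold or the largest of a group were named. Alternatives were other normalizations, filters, variance settings, the replicate block, other thresholds and arrays left out. Figures were drawn with matplotlib 3.10.9.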

Additional observations from a re-analysis of the deposited data

Results flagged for a closer look

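Bdh1 in NCOR_KO replicate 1 lay at a log2 intensity of 9.04, while the other 3 knockout arrays lay between 9.22 and 9.23. The gap to the nearest of them was 0.924 of the group's whole range, above Dixon's 95% critical value for 4 samples. It was the 1 value so marked among 62 groups of 4 arrays (31 genes in 2 groups), where chance marks about 1 in 20 groups. Without that array Bdh1 differed by -0.26 (adjusted p = 0.0947, limma).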

How the results depend on the processing

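Crat kept its direction and its call in 16 of 16 other fits (log2 difference 0.58 to 0.97, adjusted p = 0.00126 to 0.0209, limma). With any single array left out, 1 of the 31 genes was called higher and 0 lower, and 120 to 297 of all genes were called, against 366 with every array. The fits without NCOR_KO replicates 1, 2 and 3 gave 175, 120 and 193, and those without WT replicates 1, 3 and 4 gave 176, 214 and 167. The count of genes called lower among the 31 was also 0 with quantile normalization, with the replicate block, at a threshold of 0.01 and without WT replicate 2 and NCOR_KO replicate 1 together, an alternative chosen after seeing the data because these arrays stood apart from their groups. The count called higher was 2 among genes at or above the median level, 3 with trend and robust settings and 2 at a threshold of 0.1. All genes called numbered 551 among those at or above the median level, 155 with the replicate block, 88 and 807 at thresholds of 0.01 and 0.1, and 202 without that pair of arrays. Same-numbered arrays did not deviate together over all genes (correlations of -0.0935, 0.00699, 0.0167 and -0.0643). The labels do not say whether the numbers pair the samples. Such correlations cannot settle it, since a pairing in the design need not leave a shared deviation. With arrays centred on their medians the calls over all genes were 145 higher and 295 lower, against 181 and 185, and the median of the 31 genes was 0.0236, against -0.03 over all genes. The signs of 7 genes near 0 changed. These were Acad12 (-8.29e-04 with quantile normalization, -0.00318 with centring, -0.0111 with array weights, -0.0667 without that pair, -0.0730 to 0.138 with single arrays left out), Acadvl (-0.0252 with centring, -3.33e-07 without that pair, -0.0192 to 0.0406), Crot (-0.0244 with centring, -0.0532 to 0.0561), Hadh (0.0274 with quantile normalization, -0.0207 to 0.0274), Acadl (-0.14 to 0.00574), Acat1 (-0.0388 to 0.00364) and Acss1 (-0.0567 on its second probe set). The causes were not tested.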

Other observations

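A probe set was annotated to Acsm3 together with Eri2, so it was left out above. It read 10.69, 10.81, 10.84 and 10.87 in knockout liver and 11.03, 11.10, 10.95 and 10.95 in control liver, without overlap. The difference was -0.20 ± 0.06 (SE; adjusted p = 0.169, limma over all probe sets with a gene), and it cannot be told apart which of the genes it follows.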
